A study of Drosophila melanogaster with 32 samples.

Results

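Mono1 is 1 of 4 laboratory populations of Drosophila melanogaster that had evolved under monogamy, and the 4 arrays of its mated females were set against the 12 arrays of females from Mono2, Mono3 and Mono4. These 16 arrays are all those of monogamous females among the 32 arrays of the study. The members were chosen from the labels alone, as the arrays whose titles start with M1. The populations descended from the outbred laboratory stock LHM, and 4 were held to 1 mating per generation while 4 (Prom1 to Prom4) kept the usual promiscuous protocol, for 46 generations. Females were crossed within their population or with the opposite-regime males that carried its number, and whole adult flies were frozen 6 h later. Mono1 females therefore met Mono1 males (arrays M1M1-1 and M1M1-2) or Prom1 males (M1P1-1 and M1P1-2), and the last digit gives the biological replicate, which is also the batch. The 3 other lines had the same 4 arrays each, so mate regime and batch were balanced. All 16 arrays come from the same stock and regime, and no unmated female is among them.

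The comparison asks how far 1 population of a regime stood from the other populations kept in the same way. Mono1 is a single population, so the replicate arrays give the error of a difference between these lines and say nothing of what monogamy does. Females of Mono1 never met males of another number, so the females' own line and the number of their mates cannot be told apart. In whole flies, fewer cells of a type and less RNA per cell cannot be told apart either.

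Several gene families that a fly uses to handle food and foreign compounds recur below. Cytochrome P450s oxidise toxins and hormones, glutathione transferases and UDP-glycosyltransferases attach small groups that make the products soluble, and maltases and trypsins digest sugar and protein in the midgut. Ecdysteroid kinase-like genes form a large insect family named for an enzyme that phosphorylates moulting hormones. The Imd and Toll pathways sense microbial cell walls and switch on antimicrobial peptides, mostly in the fat body. In mated females, sex peptide from the male acts through its receptor SPR, and the spermathecae secrete proteases around the stored sperm.

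Values are log2 expression values from RMA, 1 per probe set and array, and 18769 probe sets were tested. Array medians lay between 5.412 and 5.464, and the lower quartile of an array between 3.764 and 3.932. The markers of female whole bodies were at high levels. The yolk and vitelline membrane genes Yp1, Yp2, Yp3, Vm26Aa and Vm34Ca averaged 14.2 to 14.3 in Mono1 arrays and 14.1 to 14.3 in the others. Defining genes of seminal fluid glands averaged 3.56 to 3.72 in Mono1 and 3.52 to 3.83 in the others, and those of testis 3.34 to 3.43 and 3.28 to 3.53, near the lower quartile, with 0 of 9 called. As a sign of RNA quality, the 3' probe set of actin exceeded the 5' one by 1.74 to 2.88 in Mono1 and by 1.68 to 3.10 in the others, with overlap.

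Arrays of a line resembled each other more than those of other lines, and Mono1 was no exception. Over all probe sets, pairs of Mono1 arrays correlated at 0.9959 to 0.9970 (median 0.9966, 6 pairs). For all 4 lines, pairs of arrays of the same line with different mates correlated at 0.9951 to 0.998 (median 0.997, 16 pairs). A Mono1 array and an array of another line correlated at 0.9922 to 0.9962 (median 0.9947, 48 pairs), and arrays of 2 other lines at 0.9931 to 0.9964 (median 0.9956, 48 pairs). On the first principal component, which held 28.3% of the variance, the Mono1 arrays lay between -18.4 and -11.3 and all others between -0.33 and 12.6. The Mono3 arrays formed the other end of that component, at 8.02 to 12.6.

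**Figure D1:**
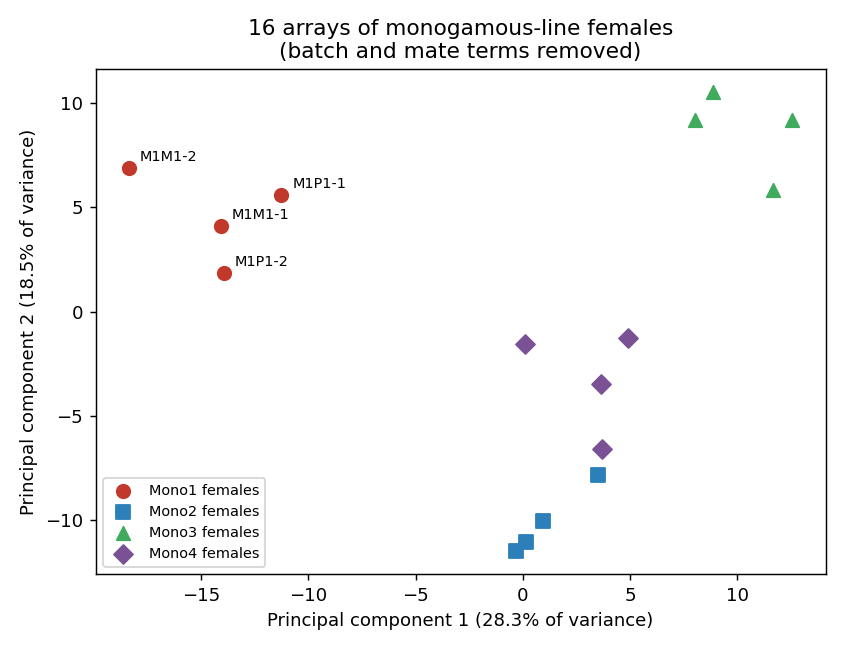
First 2 principal components of the 16 arrays of monogamous females, computed on probe sets with a mean log2 value of at least 6 after removal of batch and mate terms; each point is 1 array and colour and shape give the line. The 4 Mono1 arrays lie at -18.4 to -11.3 on component 1, apart from the other 12 at -0.33 to 12.6, and M1M1-2 is the outermost of them.

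One Mono1 array stands apart, and results that rest on it are given with and without it. In M1M1-2, 29 probe sets were more than 1 log2 unit above all 15 other arrays, against 0 to 2 in any other array. They included CG4757 at 10.92 against at most 6.49 elsewhere, CG18563 at 6.36 against at most 3.97, and a probe set annotated to several genes at 10.19 against at most 3.65. Many genes of the immune response were highest in it too, as described below.

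Between Mono1 and the other 3 lines, 885 of 18769 probe sets differed (4.72%), 460 higher (2.45%) and 425 lower (2.26%) in Mono1 (limma, adjusted p under 0.05). Without M1M1-2, 306 were called higher and 287 lower. In genes, each represented by 1 probe set, 351 of 11981 were higher (2.93%) and 322 lower (2.69%), which makes 673 (5.62%). The 4 Mono1 arrays lay wholly outside the 12 others in 431 probe sets (2.3%) once batch and mate terms were removed. Most differences were small, and 79 called probe sets exceeded 1 log2 unit (48 higher and 31 lower).

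Each line was also set against its other 3, in contrasts that share all their arrays and are given side by side only. Calls numbered 740 for Mono2 (3.94%), 755 for Mono3 (4.02%) and 809 for Mono4 (4.31%). Called probe sets beyond 1 log2 unit numbered 45 for Mono2, 53 for Mono3 and 53 for Mono4. Mono1 had the highest number by both measures, and the counts of the 4 lines were not compared by a test.

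CG6765 on arm 3L had the largest difference of the called genes in either direction. It read 3.40, 3.20, 3.48 and 3.61 in the 4 Mono1 arrays and 7.95 to 8.91 (median 8.46) in the 12 others. All 4 Mono1 values lay below the lower quartile of an array, and the groups were more than 4 units apart. The fitted difference was -5.04 ± 0.11 (standard error, n = 4 and 12 arrays, adjusted p = 1.03e-12). With Mono1 so near the bottom of the scale and no detection calls at hand, its size cannot be read as a fold change of the transcript. The 4 promiscuous lines had means of 8.13, 8.47, 6.64 and 7.03, so Mono1 was the lowest of all 8 lines.

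The genes described first are those with the largest called differences among genes whose Mono1 arrays lay outside all others once batch and mate terms were removed, 10 in each direction, so the separation of the groups is how they were chosen. Besides CG6765, those lower in Mono1 had roles in digestion, immunity, pigment granules, metabolism and the spermathecae. Mal-A6, a maltase, read 9.16, 9.02, 9.56 and 9.53 in Mono1 and 10.56 to 11.91 (median 11.47) in the others, a difference of -2.08 ± 0.15 (adjusted p = 1.39e-06). PGRP-SC2, an enzyme that cuts peptidoglycan and so dampens Imd signalling, read 8.03, 9.22, 9.08 and 8.97 against 10.15 to 10.74 (median 10.45). It was lower by -1.60 ± 0.15 (adjusted p = 1.45e-05).

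Adk3, an adenylate kinase that balances adenine nucleotides, read 6.33, 6.44, 6.03 and 6.57 in Mono1 and 7.40 to 8.17 (median 7.78) in the others (-1.42 ± 0.08, adjusted p = 1.23e-07). Rdh1, a retinol dehydrogenase by name, read 6.60, 7.15, 7.23 and 7.13 against 8.29 to 8.54 (median 8.40; -1.38 ± 0.08, adjusted p = 3.56e-07). The 12 other arrays of Rdh1 lay close together, and all 4 Mono1 arrays more than 1 unit below them. The gene rb encodes a subunit of the AP-3 complex, which sorts cargo to pigment granules and lysosomes, and its loss gives the ruby eye colour. It read 7.73, 8.04, 7.87 and 7.84 against 8.80 to 9.39 (median 9.22), a difference of -1.29 ± 0.06 (adjusted p = 1.11e-08).

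Naglu, a lysosomal enzyme that degrades heparan sulphate, read 8.68, 8.38, 8.52 and 8.67 in Mono1 and 8.85 to 10.16 (median 10.01) in the others (-1.23 ± 0.09, adjusted p = 1.85e-06). The means of the other lines were uneven, with Mono3 at 9.25 and Mono2 and Mono4 at 10.05 and 10.07. Sod3, an extracellular superoxide dismutase, read 9.02, 9.34, 9.51 and 9.22 against 10.26 to 10.64 (median 10.45; -1.17 ± 0.08, adjusted p = 6.94e-07), while a second probe set of Sod3 did not pass (-0.48, adjusted p = 0.0924). The C-type lectin gene lectin-33A read 5.13, 5.57, 5.33 and 5.33 against 5.63 to 8.65 (median 6.06; -1.39 ± 0.17, adjusted p = 0.000142). Its difference rested in part on Mono4, which had a mean of 8.22, and without Mono4 it was -0.64 and did not pass. CG32834, a protease gene of the spermathecae, is the tenth and is taken up with that organ.

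**Figure D2:**
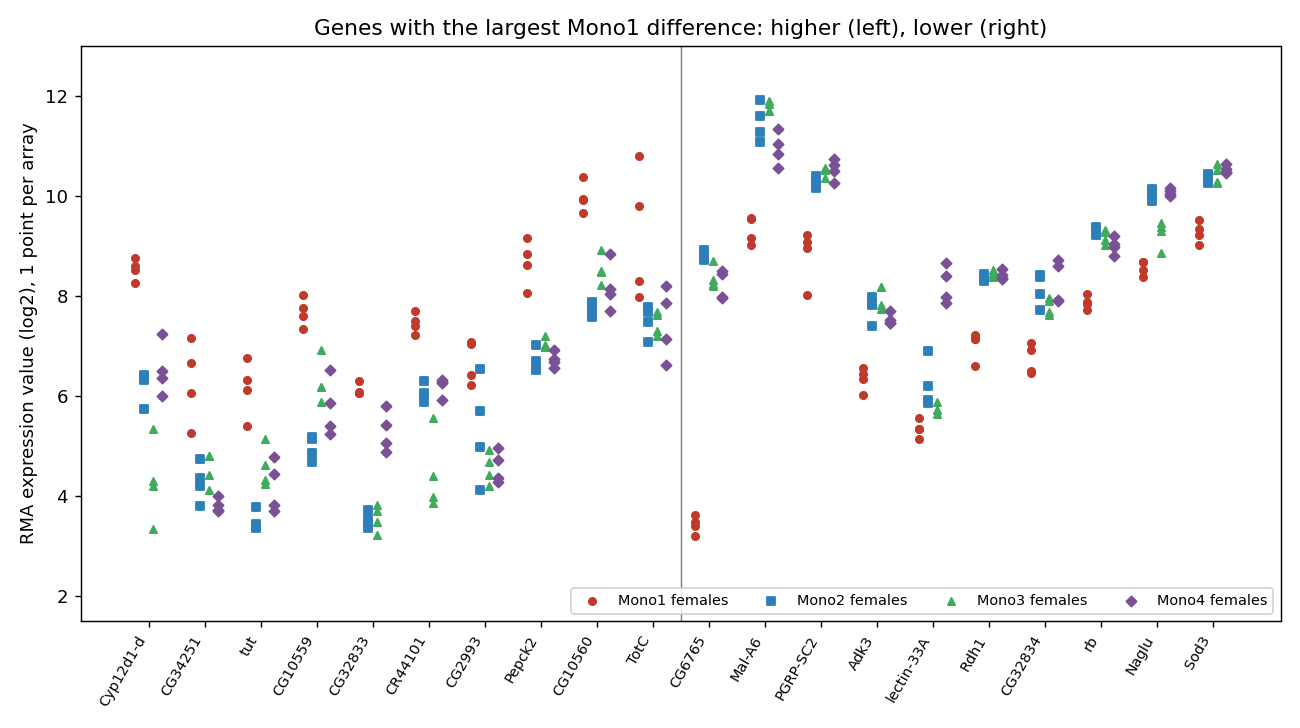
RMA expression values (log2) of the 10 genes with the largest rise (left of the line) and the 10 with the largest fall (right) in Mono1, among called genes whose Mono1 arrays lay outside all others after removal of batch and mate terms; each point is 1 array, and colour and shape give the line. Mono1 arrays of CG6765 sit at 3.20 to 3.61 and those of the other lines at 7.95 to 8.91, and in these raw values CG2993 and TotC show Mono1 arrays among the others.

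Among the 10 genes chosen in the same way for a rise, the largest was in Cyp12d1-d, a mitochondrial P450 that drugs and insecticides induce. It read 8.76, 8.52, 8.27 and 8.59 in Mono1 and 3.34 to 7.24 (median 6.16) in the others, a difference of 2.86 ± 0.28 or 7.26-fold (adjusted p = 1.72e-05). The other lines differed among themselves, with means of 6.21 in Mono2, 4.29 in Mono3 and 6.52 in Mono4. Cyp12d1-d has a nearly identical neighbour, Cyp12d1-p, and whether the probe set tells the copies apart was not tested.

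Genes higher in Mono1 included tut, which in the male germline limits the divisions of spermatogonia together with the bam and bgcn products. It read 6.12, 6.33, 5.40 and 6.76 in Mono1 and 3.35 to 5.14 (median 4.03) in the others, a difference of 2.07 ± 0.18 (adjusted p = 5.6e-06). Pepck2, a phosphoenolpyruvate carboxykinase of gluconeogenesis, read 8.63, 9.15, 8.85 and 8.05 against 6.51 to 7.20 (median 6.83; 1.85 ± 0.14, adjusted p = 1.66e-06). Its paralogue Pepck1 differed less, by 0.49 ± 0.09 (adjusted p = 0.00636), with overlap between the groups, and did not pass without Mono4 (0.23).

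Also chosen for a rise, CG10559 and CG10560 (ecdysteroid kinase-like), CG32833 (a spermathecal protease) and TotC (a stress peptide) follow with their groups. The remaining genes of the 10 chosen for a rise have no role stated here. CG34251 read 5.25, 7.17, 6.06 and 6.65 in Mono1 and 3.70 to 4.80 (median 4.16) in the others (2.08 ± 0.26, adjusted p = 0.000186). Its 4 Mono1 arrays differed among themselves by nearly 2 units, but all lay above the others. CR44101 read 7.49, 7.40, 7.22 and 7.70 against 3.85 to 6.33 (median 5.96; 1.89 ± 0.20, adjusted p = 3.72e-05). CG2993 read 6.22, 6.43, 7.08 and 7.04 against 4.11 to 6.55 (median 4.70; 1.87 ± 0.28, adjusted p = 0.000963), so that 2 Mono1 arrays lay below the highest of the others.

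A further gene, RalGPS, an exchange factor for the small GTPase Ral, was picked after its values were seen. It read 5.80, 6.46, 6.69 and 6.89 in Mono1 and 6.24 to 9.88 (median 9.29) in the others, with a difference of -2.21 ± 0.19 (adjusted p = 5.6e-06). It is outside the 10 genes above because Mono4, with a mean of 7.13, reached into the range of Mono1.

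Lists of related genes were described by how many members passed, against 2.93% of all genes higher and 2.69% lower, and by their median difference, against -0.005 for all genes, of which 52.4% lay below 0. The share of members called was 38.6% for ecdysteroid kinase-like genes, 41.2% for glutathione transferases, 41.7% for maltases, tobi and amylases, and 22.2% for cytochrome P450s. Lists differ in size and brightness, and no list was tested as a set. Of 147 named genes that were called, 70 lost their call when at least 1 of the other 3 lines was left out, which also leaves fewer arrays.

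Of 44 ecdysteroid kinase-like genes, 15 were higher in Mono1 and 2 lower, with a median of 0.14. The mean of the list was 7.72 to 7.84 in the 4 Mono1 arrays and 7.37 to 7.56 in the 12 others, without overlap. CG10560 read 9.65, 9.92, 9.95 and 10.39 in Mono1 and 7.58 to 8.91 (median 8.09) in the others (1.83 ± 0.14, adjusted p = 1.66e-06). CG10559 read 7.60, 7.33, 7.76 and 8.03 against 4.68 to 6.92 (median 5.63; 2.01 ± 0.20, adjusted p = 2.39e-05). Both genes were higher in every Mono1 array than in any other array.

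CG16898 on arm 2R was higher by 1.62 ± 0.20 (adjusted p = 0.000152), CG13659 by 1.11 ± 0.10 (adjusted p = 1.05e-05), CG10562 by 0.94 ± 0.06 (adjusted p = 5.24e-07) and CG10550 by 0.81 ± 0.07 (adjusted p = 9.56e-06). Other members that passed were CG31288 (0.75), CG10553 (0.74), CG10513 (0.64), CG31436 (0.49), CG31370 (0.47), CG11893 (0.42), CG31102 (0.35), CG9497 (0.33) and CG31974 (0.32). The 2 lower members were CG9259 (-0.98 ± 0.09, adjusted p = 1.11e-05) and CG10514 (-0.60 ± 0.11, adjusted p = 0.00557). Without M1M1-2, CG31436, CG31370, CG31102, CG9497 and CG31974 did not pass, which left 10 higher and 2 lower, with a median of 0.16. Without Mono4, CG10513 was 0.36 and still passed, and CG31974 was 0.21 and did not. CG11893 was 0.33 without Mono4 and did not pass either. Its Mono2 arrays, at 8.28 to 8.39, overlapped with Mono1 at 8.18 to 8.36. CG10514 was -0.45 without Mono2 and did not pass.

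Called genes that neighbour each other were listed next, because ecdysteroid kinase-like genes lie in clusters. Among the 673 called genes, 44 runs of 2 or more neighbours with the same sign held 99 genes, and 5 runs of 3 or more held 21. On arm 3R, the run CG31087, CG10559, CG10553, CG10560 and CG10562 was higher by 0.59, 2.01, 0.74, 1.83 and 0.94. A second run on 3R, CG31288, CG13659, CG31370, CG31436 and CG10550, was higher by 0.75, 1.11, 0.47, 0.49 and 0.81. For CG31370 the Mono4 arrays, at 5.89 to 6.35, overlapped with Mono1 at 5.72 to 6.08. For CG31436 the Mono2 arrays, at 7.0 to 7.2, overlapped with Mono1 at 6.8 to 7.2. All 10 genes of these runs except CG31087 belong to the ecdysteroid kinase-like list, so 9 of its 15 higher members lie there.

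A further run on 3R held the trypsin-like protease genes CG31265, CG17475, CG4053, CG31266 and CG31267, higher by 0.49, 0.32, 0.41, 0.37 and 0.29. Of these, CG4053 was 0.18 without Mono4 and did not pass. CG17475 did not pass without Mono2 (0.27), Mono3 (0.37) or Mono4 (0.32), and CG31267 did not without Mono2 (0.20). On the X chromosome, CG14204, CG14219 and CG14205 were higher by 0.30, 1.57 and 1.42. The call of CG14204 was lost without Mono2 (0.26) or Mono3 (0.31). Of the 5 longer runs, 1 was of falls and held glutathione transferases on 2R, GstE10, GstE1 and GstE2, at -0.20, -0.38 and -0.28. Without Mono3, GstE2 was -0.11 and did not pass, and GstE10 did not pass without Mono2 (-0.14) or Mono3 (-0.17). Of these 21 genes, CG17475, CG31267, CG31370, CG31436 and GstE10 did not pass without M1M1-2. CG31370 was 0.14 without Mono2 and CG31436 0.25 without Mono4, again without a call. Similar sequences within a cluster may share signal on the array, which was not tested.

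Glutathione transferases moved in both directions, with 8 of 34 higher and 6 lower (median 0.06). The list mean was 8.71 to 8.75 in Mono1 and 8.49 to 8.63 in the others. GstO3, of the omega class, read 9.77, 10.05, 9.84 and 9.94 in Mono1 and 8.08 to 9.21 (median 8.74) in the others (1.19 ± 0.08, adjusted p = 6.94e-07). GstE11 read 9.36, 9.40, 9.32 and 9.41 against 8.06 to 8.96 (median 8.46; 0.94 ± 0.08, adjusted p = 9.56e-06). Among the delta class, GstD4 was higher by 0.97, GstD2 by 0.94, GstD8 by 0.72, GstD10 by 0.38 and GstD7 by 0.36, whereas GstD3 (-0.32) and GstD1 (-0.22) were lower.

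GstE14, an epsilon-class member needed to make ecdysone, was higher by 0.62 ± 0.05 (adjusted p = 3.8e-06), and by 0.29 without Mono4. Its mean was 6.38 in Mono1 and also 6.38 in Mono2, against 5.80 in Mono3 and 5.09 in Mono4. Mono1 was therefore level with Mono2, and the difference rested on Mono3 and Mono4. Without Mono4, GstD10 was 0.22 and GstD3 -0.16, and neither passed. GstE6 was lower by -0.42, beside the run of GstE1, GstE2 and GstE10. Without M1M1-2 the list had 8 members higher and 3 lower. GstD1, GstD3 and GstE10 were the ones that lost their call, so the epsilon class still held members that passed in both directions and the delta class only higher ones.

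Among 81 cytochrome P450 genes, 11 were higher and 7 lower, with a median of 0.01, close to that of all genes. Cyp6w1, a P450 linked to insecticide resistance, read 7.67, 7.76, 7.32 and 7.50 in Mono1 and 5.54 to 7.26 (median 6.22) in the others (1.28 ± 0.13, adjusted p = 2.14e-05). Cyp6a2, another detoxifying P450, read 7.80, 7.50, 7.75 and 7.66 against 5.87 to 7.49 (median 6.53; 1.02 ± 0.08, adjusted p = 3.26e-06). In both genes Mono4 was the nearest of the other lines, at 7.03 for Cyp6w1 and 7.32 for Cyp6a2.

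Cyp6a14 was higher by 0.78, Cyp6a13 by 0.65, Cyp9b2 by 0.64, Cyp6a8 and Cyp4p3 by 0.50 each, Cyp4ad1 by 0.49, Cyp4d8 by 0.28 and Cyp4e2 by 0.20. Cyp9b1 was lower by -0.76 ± 0.08 (adjusted p = 4.85e-05), with all 4 Mono1 arrays below the others. Cyp6g1, the P450 best known for DDT resistance, was lower by -0.75 ± 0.13 (adjusted p = 0.00277), and without Mono3 by -0.07 with no call. Its Mono1 values of 9.02, 8.75, 8.71 and 9.32 lay among those of Mono2 and Mono4, with means of 8.90 and 9.14, and it was Mono3 that stood high at 11.06. The other lower members were Cyp4d20 (-0.56), Cyp4p1 (-0.43), Cyp9h1 (-0.42), Cyp6a20 (-0.34) and Cyp4g15 (-0.26). Without M1M1-2, Cyp4p3 and Cyp4d8 did not pass, which left 9 higher and 7 lower. Cyp4p3 was 0.20 and Cyp4p1 -0.20 without Mono3, Cyp4d20 -0.32 and Cyp9h1 -0.27 without Mono4, and Cyp4e2 0.13 without Mono2, and none of these passed there. Calls were also lost for Cyp6a20 without Mono2 (-0.27) or Mono3 (-0.23), and for Cyp4g15 without Mono4 (-0.22). Cyp4d8 lost its call without Mono2 (0.25) or Mono4 (0.23). The Cyp6a20 arrays of Mono4, at 5.59 to 5.94, overlapped with Mono1 at 5.58 to 5.92.

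UDP-glycosyltransferases had 5 of 35 members higher and 1 lower (median 0.06). Ugt49C1 read 7.70, 7.72, 7.81 and 7.67 in Mono1 and 6.03 to 7.28 (median 6.70) in the others (1.06 ± 0.11, adjusted p = 5.18e-05). Its neighbour Ugt49B1 was higher by 0.78 ± 0.08 (adjusted p = 3.77e-05), followed by Ugt37C2 (0.36), Ugt35A1 (0.34) and Ugt302C1 (0.26), and Ugt36D1 was lower by -0.22. Without M1M1-2, Ugt37C2, Ugt35A1 and Ugt302C1 did not pass, and Ugt302C1 was 0.17 without Mono4. Of 10 esterases and alcohol dehydrogenases, alpha-Est3 (0.16) and Jhe, a juvenile hormone esterase (0.44, adjusted p = 0.0487), were higher and alpha-Est10 (-0.37) lower. Of these 3, only alpha-Est10 passed without M1M1-2, and it did not pass without Mono4 (-0.11). Jhe was 0.25 without Mono4 and did not pass either.

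**Figure D3:**
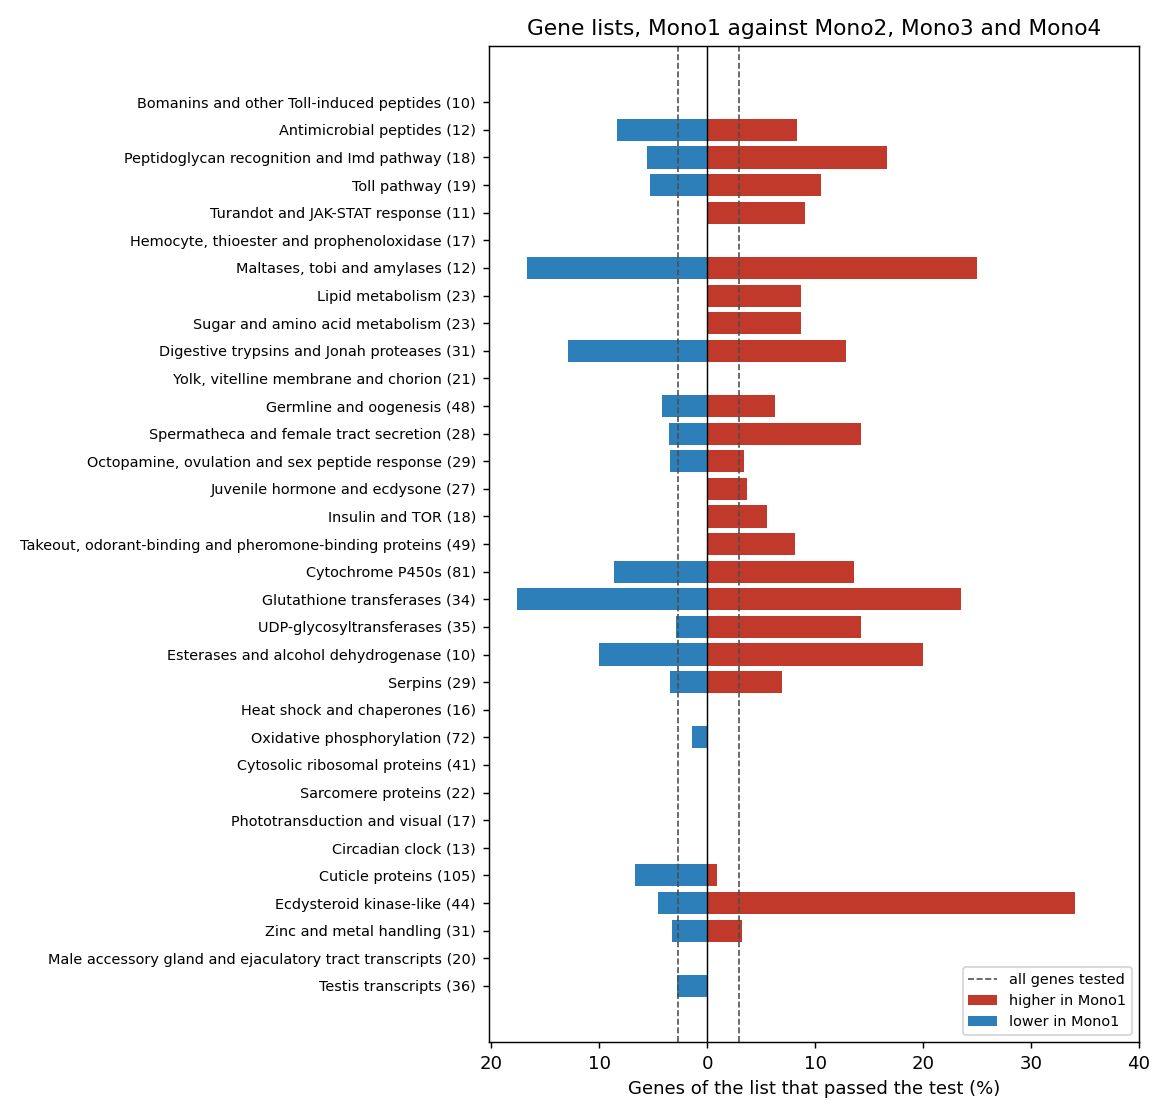
Share of each gene list (number of genes in brackets) that passed the test between Mono1 and the other 3 lines, in percent, with genes lower in Mono1 to the left and genes higher to the right; dashed lines mark the shares over all genes tested, 2.69% and 2.93%. Ecdysteroid kinase-like genes reach farthest to the right with 15 of 44, and lists such as yolk, sarcomere and ribosomal proteins show no bar.

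In the maltase list, 3 of 12 genes were higher and 2 lower, while 9 lay below 0 and the median was -0.25. Mal-A1 read 11.77, 11.17, 11.51 and 11.65 in Mono1 and 11.78 to 12.75 (median 12.36) in the others (-0.78 ± 0.12, adjusted p = 0.00152). With Mal-A6 at -2.08 it was the other member that was lower. The 3 higher members were Mal-A8 (0.50), Mal-B2 (0.37) and Mal-A5 (0.31). Mal-A7 (-0.59), Mal-A2 (-0.44), Mal-A4 (-0.32), Mal-A3 (-0.27), tobi (-0.24) and Mal-B1 (-0.23) did not pass. Without M1M1-2 the median was -0.13 and Mal-B2 did not pass. Mal-A8 did not pass without Mono3 (0.16) or without Mono2 (0.35), and was 1.01 without Mono4. Its Mono4 arrays, at 8.91 to 9.35, all lay above its Mono1 arrays, at 8.16 to 8.84.

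Digestive trypsins, Jonah proteases and lysozymes had 4 of 31 genes higher and 4 lower (median 0.07). The trypsins thetaTry (-0.45 ± 0.06, adjusted p = 0.000223), alphaTry (-0.22) and betaTry (-0.20) were lower in all 4 Mono1 arrays than in any other, and Jon44E was lower by -0.52. Jon25Bi (0.30), Jon65Aiii (0.28), Jon25Biii (0.23) and etaTry (0.22) were higher. Without M1M1-2, Jon44E, Jon65Aiii, Jon25Biii and etaTry did not pass, and a recount over the whole list gave 2 higher and 3 lower. Without Mono4, Jon44E was -0.31, Jon25Biii 0.14 and Jon25Bi 0.23, and none of these 3 passed. Of the 4 midgut markers, 3 were lower (alphaTry, betaTry and Mal-A1), and their mean was 12.6 to 12.8 in Mono1 and 12.7 to 13.2 in the others. The part of gut tissue in these differences was not tested.

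Of 23 genes of sugar and amino acid metabolism, fbp (fructose-1,6-bisphosphatase, 0.32 ± 0.05, adjusted p = 0.000741) and Pepck1 were higher, both enzymes of gluconeogenesis like Pepck2 above, and 0 were lower (8.7% called, median 0.04). Of 23 lipid genes, fit, a fat-body satiety signal of females, was higher by 0.29 ± 0.05 (adjusted p = 0.00149) and the lipase Lip4 by 0.25, and Lip4 did not pass without M1M1-2. The call of fit was lost without Mono4 (0.21). For oxidative phosphorylation 1 of 72 genes passed, ND-13B at -0.23, but 56 of 72 lay below 0 (median -0.04). The 22 sarcomere genes held 0 calls, although 21 lay below 0 with a median of -0.16. That median was -0.32 in batch 1 and 0.00 in batch 2.

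Genes of the female reproductive tract included opposite changes in a pair of spermathecal proteases. CG32833 read 6.05, 6.07, 6.30 and 6.05 in Mono1 and 3.21 to 5.79 (median 3.71) in the others (2.00 ± 0.13, adjusted p = 5.16e-07). Among the others, Mono4 was high at 5.29 and Mono2 and Mono3 were near the low end at 3.52 and 3.55. CG32834 read 6.93, 6.46, 7.05 and 6.49 against 7.61 to 8.72 (median 7.95; -1.34 ± 0.07, adjusted p = 1.14e-07), below every other array.

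In all, 4 of 28 spermatheca and tract genes were higher and 1 lower (median 0.09). Send1, a spermathecal endopeptidase, read 8.82, 8.10, 9.41 and 7.40 in Mono1 and 6.27 to 8.43 (median 6.88) in the others (1.31 ± 0.22, adjusted p = 0.00311), overlapping with Mono2. CG32751 was higher by 1.49 ± 0.28 (adjusted p = 0.0054). That rested on Mono2 at 3.75, and without Mono2 the difference was 0.75 and did not pass. CG31681 was higher by 0.52 and did not pass without M1M1-2 or without Mono4 (0.29). The marker pair Send1 and Send2 averaged 7.79 to 8.87 in Mono1 and 5.29 to 8.62 in the others, and the part of spermathecal tissue was not tested.

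SPR, the receptor of sex peptide, read 7.27, 7.89, 7.73 and 7.90 in Mono1 and 5.73 to 7.11 (median 6.61) in the others, without overlap. It was higher by 1.13 ± 0.12 or 2.19-fold (adjusted p = 3.83e-05), and the promiscuous lines had means of 7.61, 6.93, 7.76 and 7.40. A second probe set of SPR, with a mean of 3.05 over the 16 arrays, did not differ detectably (0.03, adjusted p = 0.933). In the list of octopamine, ovulation and sex peptide response, SPR was the only gene of 29 that was higher, and ppk29, a pickpocket channel subunit, the only one lower (-0.33, median -0.01). The call of ppk29 was lost without M1M1-2.

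Of 48 germline and oogenesis genes 3 were higher and 2 lower (10.4% called, median -0.03). These were c(3)G, a part of the synaptonemal complex (0.45), rhi, which marks piRNA clusters (0.34), fs(1)K10, which localises gurken (0.24), Sxl, the switch of sex determination (-0.34), and egl, which carries messages into the oocyte (-0.24). The calls of rhi, Sxl and egl were lost without M1M1-2. That of rhi was also lost without Mono2 (0.23) or Mono3 (0.26), and its Mono4 arrays, at 8.61 to 8.81, overlapped with Mono1 at 8.55 to 8.83. Yolk, vitelline membrane and chorion genes had 0 of 21 called (median 0.07), with a list mean of 11.10 to 11.49 in Mono1 and 10.56 to 11.88 in the others. Juvenile hormone and ecdysone genes differed in 1 of 27 (Jhe, which that list shares with the esterases), and insulin and TOR genes in 1 of 18 (Sdr, a secreted decoy of insulin-like peptides, 0.32).

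Immune genes are where the array M1M1-2 weighs most. DptB, a diptericin made under Imd signalling, read 10.87, 12.82, 8.07 and 10.39 in Mono1 and 6.57 to 10.35 (median 6.94) in the others. Of the 12 other arrays only M4M4-1, at 10.35, reached above 8, so that the groups overlapped through that array and M1P1-1. The difference was 3.29 ± 0.67 or 9.80-fold (adjusted p = 0.01). Without M1M1-2 it was 2.53 ± 0.66 and did not pass (adjusted p = 0.0588).

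Mtk, which encodes the antifungal peptide metchnikowin, had the same order of the 4 Mono1 arrays, with 11.77, 13.24, 8.51 and 11.38 in Mono1 and 7.40 to 11.43 (median 8.16) in the others. Its difference of 2.63 ± 0.78 did not pass (adjusted p = 0.0745). Drsl4, of the drosomycin family, was the only antimicrobial peptide that was lower, at 9.08, 9.22, 8.58 and 8.81 against 8.96 to 10.45 (median 9.98; -1.01 ± 0.18, adjusted p = 0.00339). Of 12 antimicrobial peptides, 1 was higher and 1 lower with all arrays (median 0.19), and 0 higher and 1 lower without M1M1-2 (median 0.02).

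Bomanins and other peptides induced by Toll had 0 of 10 called, with 1 of 10 below 0 and a median of 0.40, which was 0.16 without M1M1-2. Their list mean was 11.54 in M1M1-2, 9.79 to 10.45 in the 3 other Mono1 arrays and 9.74 to 10.82 in the other lines. Of the 22 genes of these 2 peptide lists, 18 were highest of all 16 arrays in M1M1-2. BomS5, picked after its values were seen, read 10.10, 12.15, 9.47 and 10.57 in Mono1 and 8.99 to 10.42 (median 9.42) in the others, a difference of 1.04 that did not pass (adjusted p = 0.133). M1M1-2 was the highest array for BomS5 as well, and the other Mono1 arrays overlapped with the other lines.

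Recognition and signalling genes of the Imd pathway had 3 of 18 higher and 1 lower (median 0.03), and without M1M1-2 there was 1 in each direction. PGRP-SC2, described above, was the lower one and kept its call (-1.76 without M1M1-2, adjusted p = 1.81e-05). PGRP-LB, an amidase that dampens Imd signalling, was higher by 0.46 ± 0.09 (adjusted p = 0.00686) and by 0.37 without M1M1-2 (adjusted p = 0.0436). Its call was lost without Mono4 (0.38, adjusted p = 0.0571). PGRP-SB1, a secreted amidase, read 10.33, 11.44, 8.96 and 10.08 against 8.63 to 10.12 (median 8.89; 1.16 ± 0.28, adjusted p = 0.0263), and lost its call without that array (0.80, adjusted p = 0.124), without M1M1-1 (1.21) or without M1P1-2 (1.11). The adaptor gene imd (0.25) lost it too.

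For the Toll pathway, 2 of 19 genes were higher and 1 lower (median 0.02). They were pll, the kinase Pelle (0.26), GNBP3, which recognises fungal glucan (0.32), and Pli, a Pellino ligase (-0.21), which was not called without M1M1-2. The call of pll was lost without Mono3 (0.20). Of 11 Turandot and JAK-STAT genes only TotC was higher. This stress peptide gene read 7.97, 10.80, 9.80 and 8.30 against 6.62 to 8.21 (median 7.55; 1.75 ± 0.38, adjusted p = 0.0156), and did not pass without M1M1-2 (1.25, adjusted p = 0.076) or without M1P1-1 (1.39, adjusted p = 0.0887). Genes of hemocytes, thioester proteins and prophenoloxidases had 0 of 17 called (median -0.02), and the hemocyte markers averaged 6.13 to 6.46 in Mono1 and 6.02 to 6.60 in the others.

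A pair of other responsive genes was picked after its values were seen. The gene edin, named for its rise during infection, read 4.76, 7.29, 4.39 and 5.09 in Mono1 and 3.84 to 4.54 (median 4.01) in the others (1.27 ± 0.32, adjusted p = 0.0376). Without M1M1-2 it was 0.65 and passed (adjusted p = 0.0246), but the call was lost on leaving out any 1 of 8 other arrays. Fst, a gene induced by cold, read 8.92, 10.44, 8.80 and 7.81 against 7.25 to 8.65 (median 7.64; 1.16 ± 0.29, adjusted p = 0.0325), and did not pass without M1M1-2 (0.67, adjusted p = 0.0771) or without any 1 of 7 other arrays. Whether the state of the flies or the handling of 1 sample goes with the values in M1M1-2 was not tested.

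**Figure D4:**
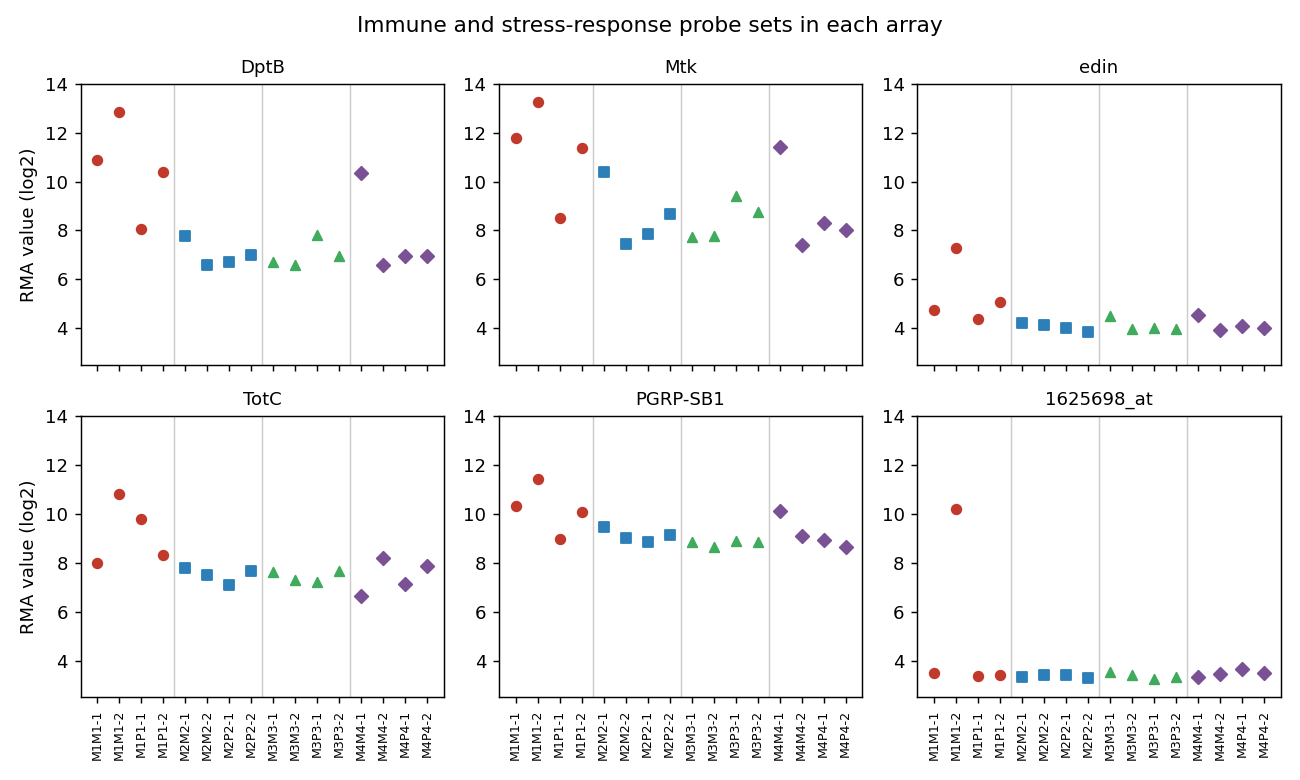
RMA values (log2) of 5 immune and stress genes and of a probe set annotated to several genes (the last panel) in each of the 16 arrays, with red circles for Mono1, blue squares for Mono2, green triangles for Mono3 and purple diamonds for Mono4. M1M1-2 is the highest array in all 6 panels, for example at 12.82 for DptB and at 10.19 in the last panel, where every other array is at most 3.65.

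Among the other lists, cuticle proteins had 1 of 105 genes higher and 7 lower (median -0.02). The lower ones were led by Cpr92F at 5.62, 6.36, 7.25 and 7.08 in Mono1 and 6.64 to 9.26 (median 8.20) in the others (-1.53 ± 0.27, adjusted p = 0.00324) and by Cpr51A (-0.59 ± 0.05, adjusted p = 2.8e-06). Cpr49Ag (-0.39), Cpr62Bb (-0.42), Cpr49Ae (-0.33), Cpr97Ea (-0.24) and Cpr47Ec (-0.19) were lower too, and Cpr49Ac was higher by 0.27. Without M1M1-2, Cpr97Ea, Cpr47Ec and Cpr49Ac did not pass, so 0 were higher and 5 lower. Cpr49Ag was -0.22 without Mono3 and did not pass.

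Odorant-binding and related proteins had 4 of 49 higher and 0 lower (median -0.06). They were Obp56a (0.69 ± 0.10, adjusted p = 0.000792), Obp83cd (0.41), Obp83ef (0.37) and Obp44a (0.19), and without M1M1-2 there were 2 in each direction. Obp44a was 0.06 without Mono2 and did not pass, and it read 11.04 to 11.22 in Mono4 against 10.99 to 11.05 in Mono1. Serpins, inhibitors of serine proteases, had 2 of 29 higher and 1 lower (median 0.02). Spn43Aa was higher by 0.96 ± 0.10 (adjusted p = 3.38e-05) and Spn42Da by 0.22. Spn38F was lower by -1.32 ± 0.25 (adjusted p = 0.00557), which rested on Mono4 at 6.06. It was -0.42 without Mono4 and did not pass. Its Mono1 arrays, at 2.91 to 2.99, lay below the lower quartile of an array and overlapped with Mono2 at 2.82 to 3.05.

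Metal handling genes had 1 of 31 higher, the copper transporter Ctr1A (0.34 ± 0.04, adjusted p = 0.000106), and 1 lower, the zinc transporter Zip102B (-0.54 ± 0.07, adjusted p = 0.000183; median 0.03). Testis transcripts had 0 of 36 higher and 1 lower, vis (-0.46), which was not called without Mono3 (-0.05) or without M1M1-2 (-0.42). Lists with 0 calls in limma were heat shock and chaperones (16 genes, median 0.01), cytosolic ribosomal proteins (41, 0.01), phototransduction (17, -0.02), circadian clock (13, -0.03) and male accessory gland transcripts (20, 0.02). 

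The called genes were spread over the genome, with more on arm 2R. Of 2427 genes on 2R, 94 were higher and 96 lower, or 7.83%. The share was 5.26% of 2205 on 2L, 5.63% of 2343 on 3L, 4.07% of 2974 on 3R, 5.61% of 1873 on X and 6.15% of 65 on the fourth chromosome. Of the 20 genes described first, which were also chosen for separate arrays, 9 lie on 2R, beside 2427 of all 11981 genes tested. Neighbouring genes are not independent, and the shares of the arms were not tested.

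The 4 promiscuous lines were then used to place Mono1 among all 8 lines. Of the 673 called genes, Mono1 had the highest mean of the 8 lines in 191 and the lowest in 211, and in 271 it lay within their range. It was the highest or lowest of the 4 monogamous lines in 629. These genes were called for the distance of Mono1 from the mean of Mono2, Mono3 and Mono4. Its place at an end therefore follows largely from how they were chosen, and the same counts over all genes are not given. For each called gene with a difference of at least 0.5 (187 genes), a promiscuous line was counted as near to Mono1 if its mean was closer to Mono1 than to the mean of Mono2, Mono3 and Mono4. This held for Prom1 in 46.5% of genes, for Prom2 in 47.1%, for Prom3 in 35.3% and for Prom4 in 48.7%.

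On arm 2R the same count parted Prom3 from the other promiscuous lines. Of 61 genes there, Prom1 was near to Mono1 in 65.6%, Prom2 in 59%, Prom4 in 63.9% and Prom3 in 19.7%. On 3R (29 genes) the values were 31% for Prom1, 24.1% for Prom2, 41.4% for Prom3 and 24.1% for Prom4, and on X (28 genes) 17.9%, 35.7%, 32.1% and 35.7%. On 3L (34 genes) they were 29.4%, 38.2%, 41.2% and 29.4%, and on 2L (29 genes) 62.1%, 58.6%, 48.3% and 69%. These shares describe genes that were picked for the difference of Mono1, and neighbouring genes repeat each other, so no test was made.

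**Figure D5:**
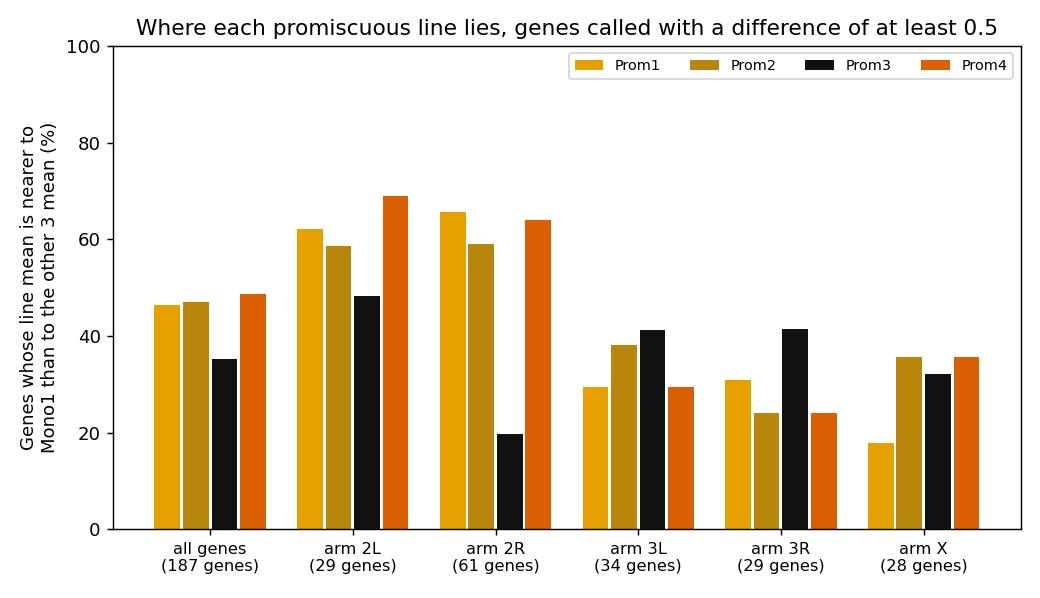
Percent of called genes with a difference of at least 0.5 whose mean in a promiscuous line is closer to Mono1 than to the mean of Mono2, Mono3 and Mono4, for all genes and by chromosome arm, with 1 bar per promiscuous line and the number of genes in brackets. On arm 2R the bar of Prom3 is at 19.7% and those of Prom1, Prom2 and Prom4 are at 59% to 65.6%.

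Among the 20 genes described first, 9 lie on 2R. In 6 of these, Prom1, Prom2 and Prom4 were nearer to Mono1 and Prom3 to the other monogamous lines. The mean of Rdh1 was 7.03 in Mono1 and lay between 6.502 and 7.38 in Prom1, Prom2 and Prom4, against 8.43 in Prom3 and 8.37, 8.44 and 8.42 in Mono2, Mono3 and Mono4. Cyp9b1, also on 2R, is not among the 20 genes and is given here because it showed the same pattern. It was lower in Mono1, and was at 5.04, 5.05 and 4.93 in Prom1, Prom2 and Prom4. Prom3 was at 6.08, against 5.83 to 5.86 in the other monogamous lines. Cyp12d1-d had a Mono1 mean of 8.54, with Prom1, Prom2 and Prom4 at 8.58, 8.20 and 8.52 and Prom3 at 5.33. Mal-A6, PGRP-SC2, Adk3 and Sod3 were the others of the 6. For CG32833 and Pepck2 only Prom4 was nearer to Mono1, and for CG32834 none of the promiscuous lines was.

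Other genes set the line mean of Mono1 apart from those of all 7 other lines. For rb on X, Mono1 had a mean of 7.87 and the other 7 lines 9.01 to 9.31. The probe set of Cbp80, which binds the cap of messenger RNA in the nucleus, read 8.21, 8.50, 8.25 and 8.48 in Mono1 and 9.01 to 9.35 (median 9.22) in the others (-0.87 ± 0.05, adjusted p = 4.01e-07). Its second probe set did not pass (-0.13, adjusted p = 0.507). CG18417 on 3L was lower in Mono1 by -1.15 ± 0.10 (adjusted p = 7.08e-06), and CG6961 on X by -1.73 ± 0.27 (adjusted p = 0.00152). The arrays of CG6961 overlapped, at 7.97, 9.24, 10.04 and 8.31 in Mono1 and 9.64 to 10.96 in the other monogamous lines. Cbp80, CG18417 and CG6961 were picked after their values were seen.

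The differences of Mono1 were then measured against the spread between lines, with 8 line means and Mono1, the other monogamous lines and the promiscuous lines as 3 groups. The single mean of Mono1 was assumed to vary like the others. In that test 3 of 18769 probe sets passed (0.016%), and 1077 had an unadjusted p under 0.05. One was the probe set of several genes named above as high in M1M1-2 (adjusted p = 7.21e-05), which rests on that array and had an adjusted p of 0.982 without it.

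The second was hpRNA:CR33940, a gene of a hairpin RNA, at 8.48, 8.25, 8.81 and 7.60 in Mono1 and 8.71 to 9.19 (median 8.98) in the others (-0.68 ± 0.06, adjusted p = 0.0488). Errors in this paragraph are those of the fit to line means and do not hold the spread between arrays of a line. The arrays of hpRNA:CR33940 overlapped through M1P1-1 at 8.81, and M1P1-2 at 7.60 was the lowest. The third was CG31674, at 7.17, 7.27, 7.28 and 7.32 against 7.59 to 8.02 (median 7.77; -0.54 ± 0.05, adjusted p = 0.0488). Without M1M1-2, 6 probe sets passed, namely CG31674, hpRNA:CR33940, rb, CG18417, CG6961 and Alp8, an alkaline phosphatase by name. In the test with all arrays, rb (adjusted p = 0.0546) and CG6765 (adjusted p = 0.0842) missed the threshold. With the 4 monogamous line means alone, 6 probe sets passed: CG6765 (adjusted p = 0.0194), TotC (0.0194), Rdh1 (0.0232), Mtk (0.0281), edin (0.0281) and the probe set of several genes (0.0194). In that fit hpRNA:CR33940 and CG31674 did not pass. M1M1-2 was the highest array for TotC (10.80), Mtk (13.24), edin (7.29) and the probe set of several genes (10.19), so their Mono1 means rest in part on it. In the test of arrays Mtk did not pass, and TotC did not pass without M1M1-2. The difference of edin fell from 1.27 to 0.65 without that array, and still passed. The fit to the 4 monogamous line means is not given without M1M1-2, so it does not show these genes to differ apart from that array.

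Whether the mate mattered more in Mono1 than in the other lines was tested as the difference between Prom and Mono males in Mono1 minus the mean of that difference in the other 3 lines. One probe set passed (0.00533%), that of CG13247, and 644 had an unadjusted p under 0.05. CG13247 read 4.81 and 4.63 in Mono1 females mated to Mono1 males and 3.47 and 3.47 in those mated to Prom1 males. The other 12 arrays read 3.21 to 3.68 (median 3.45), so the 2 arrays with Mono1 males stood alone, at a low level of signal. The difference of differences was -1.13 (adjusted p = 0.0131). The call was lost on leaving out some single arrays, for example M1P1-1, and with probe sets of mean log2 at least 6 alone, where 0 passed.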

How the data were processed

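For each array the authors deposited a log2 value per probe set, and the submitters' processing notes name RMA and the affy package without versions. RMA corrects background, brings arrays to a shared distribution and summarises each probe set, so it takes out any shift common to the bulk of transcripts. The sources used here do not state if the 32 arrays went through a single RMA run. No detection calls were held, and precision is limited by how many arrays there are. A probe set reads hybridisation, and sequence differences between lines under its probes were not examined.

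Of 18952 probe sets, 183 array controls were left out and 18769 tested. The platform annotation gave 1 gene for 13646, several for 402 and none named for 4721. Of those with 1 gene, 13543 matched the RefSeq table (Release 6 plus ISO1 MT), used for symbols, arms and gene order, with 0 symbols updated and 103 unmatched. A gene was represented by its probe set with the highest mean, which gave 11981 genes.

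Differences were tested in limma 3.58.1 (R 4.3.3), with two-sided p-values adjusted by Benjamini-Hochberg across every probe set tested and called below 0.05. The model of the 16 arrays had terms for female line, male regime and batch (10 residual degrees of freedom), and errors are its standard errors. In the test against the spread between lines, errors are those of the fit to line means. The batch is the replicate number in the labels, so it is the block of a paired design. The correlation of deviations between arrays of the same batch was -0.058 to 0.358 over 28 pairs of crosses (median 0.20). The mate difference used 8 crosses and batch (7), and the test against the spread between lines used 8 population means (5). The fit was tested on simulated data.

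Named genes were, per direction, the 10 largest called differences whose Mono1 arrays lay outside all others after removal of batch and mate terms, the called members of the lists with the lowest p, called genes of the mate and line tests, and runs of 3 or more neighbours. All other called list members are named with their values, and a few genes were picked with their values in view. The 33 gene lists, with their member genes, were chosen with earlier results of these data known. From the lists, 6 symbols that matched other genes by spelling or synonym were left out. Alternatives covered batch, samples, normalization, a filter on dim probe sets (mean log2 of at least 6) and leaving out each line and array.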

Additional observations from a re-analysis of the deposited data

Results flagged for a closer look

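In 140 groups of 4 Mono1 values (named genes and list means), 9 had 1 array far from the other 3 by Dixon's criterion, and chance alone would give about 1 in 20. In M1M1-2, the probe set of several genes was at 10.19 (next 3.47), Mal-B2 at 9.49 (next 9.19), Cpr49Ac at 4.00 (next 3.87) and the mean of the serpin list at 5.879 (next 5.68). In M1P1-1, CG32833 was at 6.30 (next 6.07), the mean of cuticle proteins at 5.05 (next 5.01) and the mean of ecdysteroid kinase-like genes at 7.84 (next 7.73). Rdh1 was at 6.60 in M1M1-1 (next 7.13) and fit at 13.66 in M1P1-2 (next 13.77). Except for the probe set of several genes, each of these gaps was below 1 log2 unit.

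The mate effect of CG13247 in Mono1 differed from that in the other lines by -1.13 in the test of the difference itself (limma). Mono1 females with Mono1 males were higher in 2 of 2 arrays than those with Prom1 males.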

How the results depend on the processing

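With all arrays, 460 probe sets were higher and 425 lower in Mono1. With no replicate block (batch left out), 283 were lower, and with 8 cross means 283 were higher. Batch 1 alone gave 102 higher and 97 lower, batch 2 alone 101 and 100, own-population mates alone 57 and 49, and promiscuous mates alone 125 and 108. These subsets hold fewer arrays. Population means, with the spread between lines as error, gave 1 higher and 2 lower. Leaving out each array in turn gave 299 (without M1P1 replicate 1) to 460 higher and 252 (without M1M1 replicate 1) to 470 lower. The sign was kept for all 885 calls in every alternative except without Mono2 or without Mono4 (882 each). With 8 cross means or population means the balanced design gives the same estimate, so the sign was fixed there. The other alternatives reuse these arrays on probe sets chosen for their difference. Of the 885 calls, 644 remained with no replicate block, 517 with 8 cross means, 852 after quantile normalization, 834 after cyclic loess, 855 after median centring and 538 without M1M1-2. The dim filter kept 700 probe sets among these calls, and 700 remained called. The mate difference gave 0 calls among probe sets of mean log2 of at least 6, and 0 to 18 on leaving out each array, with 18 without M1M1 replicate 1. Against the spread between lines, 6 passed with the 4 monogamous lines only, and 6 without M1M1 replicate 2, an alternative chosen after seeing the data. Of the 20 genes described first, CG34251, CR44101 and lectin-33A lost their call with own-population mates alone, and CG2993 in batch 2 alone. The call of lectin-33A was also lost without Mono4. TotC lost its call without M1M1-2, M1P1-1, Mono2 or Mono3, and in either batch or with either kind of mate alone. Of 105 called genes recomputed on leaving out each of 16 arrays, 31 lost their call at least once, with the same sign each time. Calls lost on leaving out any of 7 or more arrays were those of CG17475, CG31370, CG31436, Fst, GstE10, Jhe, Lip4, alpha-Est3, edin, egl and imd. Leaving out each line for the list members named beyond the 105 was chosen after seeing the data.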
